A study of Mus musculus with 9 samples.

Results

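The calcium-dependent NFAT genes Nfatc1, Nfatc2 and Nfatc3, their relative Nfat5, and 5 genes of the phosphatase calcineurin (the catalytic subunits Ppp3ca, Ppp3cb and Ppp3cc, the regulatory subunit Ppp3r1 and the inhibitor Rcan1) were followed across sorted mouse T cells. They were chosen by gene symbol, with earlier results of these data known. They are 9 of the 20659 genes with a symbol on the array and were read by 12 of its 39429 probes, 2 probes each for Nfatc1, Nfatc2 and Nfatc3 and 1 for each of the others. All 12 probes passed the filter on dim probes, which asked that 3 or more of the 9 arrays show a signal well over background. Where a gene had several probes they are told apart by the RefSeq transcript that the array design names, or by the probe name.

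BALB/c mice gave the CD4+ T cells, taken from lymph nodes and spleen, and their RNA was read in 3 groups of 3 arrays. Th1 cells were CD45RB low cells that had captured interferon gamma and no IL-17A on their surface. Th17 cells were CD45RB low cells that had captured IL-17A and no interferon gamma. Naive cells were CD3+ CD4+ cells with high CD45RB, a CD45 form that antigen-experienced cells give up. Every group, naive cells included, spent 3 h before the sort with 10 ng/ml PMA, a phorbol ester that activates protein kinase C, and 500 ng/ml ionomycin, so no group shows resting cells. Ionomycin is an ionophore that raises calcium directly, past the T cell receptor, and is a standard way to switch calcineurin on. Nothing in the labels ties a replicate to an animal or a sort, so a p-value here covers the spread between these samples alone, and that spread may be technical.

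Calcineurin is a calcium- and calmodulin-dependent phosphatase made of a catalytic and a regulatory subunit, and is the target of the drugs cyclosporin A and FK506. When calcium rises in a stimulated T cell it removes phosphate groups from NFAT proteins, which then enter the nucleus and bind cytokine genes together with AP-1 factors such as Fos and Jun. Kinases put the phosphate groups back and send NFAT out again. Nfat5 has the same kind of DNA-binding domain but lacks the calcineurin docking region and is known for the response to high salt. Because NFAT is switched by phosphate groups, the RNA levels given here say nothing of how much NFAT was active.

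A level is the log2 intensity of a probe minus that of the 75th percentile on its array, so that 0 is that percentile and a difference of 1 is a 2-fold difference. Levels of different probes cannot be compared, since each probe has its own response. On an array, 53.4% to 58.3% of the probes had a signal well above background. Slide 1 held the 3 naive arrays and Th1 replicate 1, slide 2 held Th1 replicates 2 and 3 with Th17 replicates 1 and 2, and slide 3 held Th17 replicate 3 alone. No slide held Th17 and naive arrays together, and a fit with slide as a fixed block links these groups only through the Th1 arrays. That fit also takes nothing from Th17 replicate 3, since its slide holds no other array. A fit within slide 1 rests on 1 Th1 array, so it holds no spread between Th1 arrays. Of 8 CD4 T cell markers on the array, all were above background on every Th1 and naive array and 7 on every Th17 array, while the CD8 marker Cd8a (but not Cd8b1, given with the other markers at the end) and the B cell markers Cd79b and Ms4a1 were above background on none.

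The promoters of members on RefSeq's list show how unevenly the core of an NFAT site, the letters GGAAA on either strand (TTTCC on the other), is spread over these genes. RefSeq (build GRCm38.p6) gave 9 promoters for 6 of the 9 members, each 300 bases from 250 before to 50 after a transcript start. None was given for Nfatc1, Ppp3ca or Ppp3cc. The core is short and common: 61.3% of 32851 promoters of the same length held at least 1 copy. Shown are both Rcan1 starts, because Rcan1 is itself a classic NFAT target, with Ppp3cb and Nfat5, which were higher in Th1 and Th17 than in naive cells, and Ppp3r1, which was lower in Th17 than in naive cells. Each is 5′ to 3′ on the strand of its gene, with every GGAAA or TTTCC in capitals.
Rcan1, downstream start, chr16:92400029-92400328, minus strand: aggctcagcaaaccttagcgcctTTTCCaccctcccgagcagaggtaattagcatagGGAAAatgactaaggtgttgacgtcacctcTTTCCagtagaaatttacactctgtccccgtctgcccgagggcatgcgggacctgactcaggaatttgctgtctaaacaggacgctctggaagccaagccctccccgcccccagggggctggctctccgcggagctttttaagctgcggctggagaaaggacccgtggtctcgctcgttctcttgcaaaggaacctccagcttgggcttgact
Rcan1, upstream start, chr16:92466120-92466419, minus strand: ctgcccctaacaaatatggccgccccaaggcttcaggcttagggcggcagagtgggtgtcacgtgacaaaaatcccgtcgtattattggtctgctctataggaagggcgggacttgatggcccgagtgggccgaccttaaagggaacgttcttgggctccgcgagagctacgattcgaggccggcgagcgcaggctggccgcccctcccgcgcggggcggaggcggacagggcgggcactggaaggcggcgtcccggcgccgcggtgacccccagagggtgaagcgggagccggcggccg
Ppp3cb, chr14:20546524-20546823, minus strand: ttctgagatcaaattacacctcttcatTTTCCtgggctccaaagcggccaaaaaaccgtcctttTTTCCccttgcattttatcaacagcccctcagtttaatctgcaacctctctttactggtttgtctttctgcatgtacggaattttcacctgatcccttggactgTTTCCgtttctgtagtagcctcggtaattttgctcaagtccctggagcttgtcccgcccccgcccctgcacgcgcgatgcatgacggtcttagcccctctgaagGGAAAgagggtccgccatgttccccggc
Nfat5, chr8:107293220-107293519, plus strand: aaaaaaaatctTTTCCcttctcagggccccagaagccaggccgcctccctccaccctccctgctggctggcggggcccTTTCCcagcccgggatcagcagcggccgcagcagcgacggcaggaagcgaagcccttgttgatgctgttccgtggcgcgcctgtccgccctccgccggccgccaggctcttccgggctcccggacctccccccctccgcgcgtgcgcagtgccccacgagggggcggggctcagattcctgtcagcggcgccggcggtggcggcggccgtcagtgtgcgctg
Ppp3r1, chr11:17159048-17159347, plus strand: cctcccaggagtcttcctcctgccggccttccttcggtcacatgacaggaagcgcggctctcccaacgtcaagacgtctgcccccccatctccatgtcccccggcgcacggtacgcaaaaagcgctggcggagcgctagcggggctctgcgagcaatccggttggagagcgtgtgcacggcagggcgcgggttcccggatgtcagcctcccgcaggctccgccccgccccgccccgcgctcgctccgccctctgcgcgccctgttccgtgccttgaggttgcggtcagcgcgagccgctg
The downstream Rcan1 start had 3 copies of the core, a number that 9.42% of promoters reach, and 1 copy of the AP-1 motif TGANTCA, which 7.81% of promoters hold. The upstream Rcan1 start had 0 copies of the core, as had Ppp3r1. The Ppp3cb promoter had 4 copies, a number that 2.65% of promoters reach, and Nfat5 had 2, which 26.7% reach. Of the promoters not printed, the starts of Nfatc2 had 1 and 3 copies and those of Nfatc3 had 1 and 0. These letters are a description and not evidence of binding, and the files do not say which Rcan1 start feeds the transcripts that the probe reads.

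The NFAT and calcineurin genes differed between groups as a mixed set, with Nfatc1, Nfatc3, Nfat5 and the catalytic subunits Ppp3cb and Ppp3cc higher in Th1 than in naive cells, and Ppp3ca lower. In Th1 against naive cells 8 of the 12 probes, from 6 genes, passed the test (limma adjusted p under 0.05 over all 23216 probes kept), 7 higher and 1 lower, where 54.2% of all probes kept passed, 23.6% higher and 30.7% lower. In Th17 against naive cells 9 probes passed, at least 1 for each of the 9 genes, 6 higher and 3 lower, where 54.4% of all probes passed, 24.8% higher and 29.7% lower. Nfatc2 is among the 9 genes only through its dim NM_001037177 probe, which was above background on 1 of 3 naive arrays. Its call was lost when the local background was subtracted (0.28, limma adjusted p = 0.272) or with normexp, a model-based background correction, on 8 arrays (0.46, limma adjusted p = 0.106). Both add 50 to every signal, which shrinks fold changes of a probe whose processed signals were 14.9 to 51.7. The lost call therefore cannot be credited to background alone. In Th17 against Th1 cells 4 probes from 4 genes passed, all lower in Th17, where 16.0% of all probes passed, 8.42% higher and 7.56% lower. The arrays of the groups did not overlap for 11, 9 and 8 probes in these comparisons, where 65.4%, 63.6% and 35.3% of all probes did not overlap. The counts against naive cells are therefore to be read beside a background in which more than 1 in 2 probes pass. In size, the median difference over the 12 probes, sign set aside, was 0.87, 0.75 and 0.51 log2 units, where the median over all probes was 0.50, 0.51 and 0.24. Both comparisons with naive cells share the naive arrays, so they are not independent of each other. In a bulk RNA measurement, fewer cells that express a gene and less RNA of it per cell cannot be told apart.

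**Figure D1:**
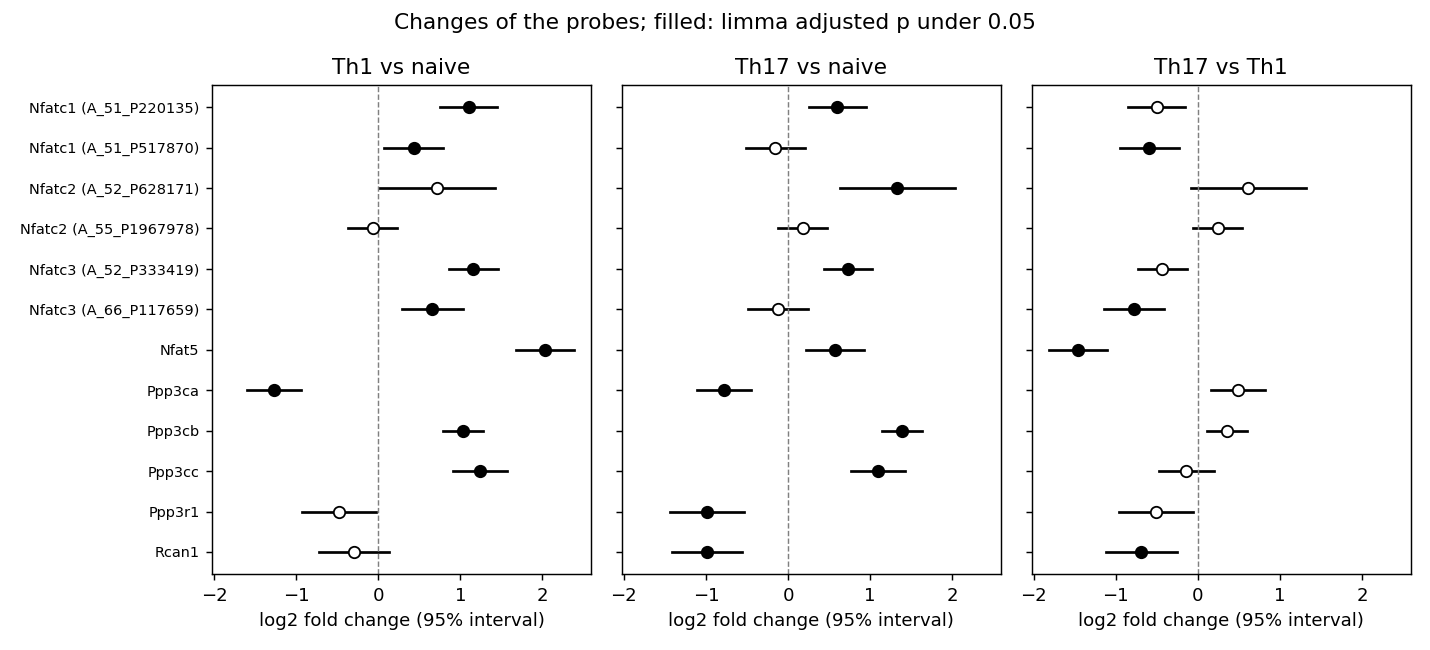
Log2 fold changes of the 12 NFAT and calcineurin probes (points) with 95% confidence intervals (lines) in the 3 comparisons between Th1, Th17 and naive cells, with the first group of each pair on top of the ratio. Filled points passed the test (limma adjusted p under 0.05). Nfat5 had the largest Th1 rise of the 12 at 2.03, and Ppp3ca lay on the opposite side of 0 from Ppp3cb and Ppp3cc in both comparisons with naive cells.

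Nfatc1, the factor that T cells are known to induce on activation through a promoter that NFAT itself binds, had higher levels in Th1 than in naive cells on both of its probes. The NM_016791 probe read 3.18, 3.42 and 3.20 on the Th1 arrays, 2.55, 2.65 and 3.08 on the Th17 arrays and 2.21, 2.22 and 2.06 on the naive arrays. The 3 groups did not overlap, with Th17 cells between the others and Th17 replicate 3 closest to the Th1 arrays. The probe rose by 1.10 ± 0.15 (SE) in Th1 against naive cells (limma adjusted p = 0.000457), and by 1.01 within slide 1. It rose by 0.60 ± 0.15 in Th17 against naive cells (adjusted p = 0.00971), a call that was lost with slide as a fixed block, at 0.31 (adjusted p = 0.279). Th17 against Th1 differed by -0.50 ± 0.15 (adjusted p = 0.0576), and by -0.71 within slide 2. Among fits that left out 1 array, this difference passed only without Th17 replicate 3 (adjusted p = 0.0103). It also passed with slide as a fixed block (adjusted p = 0.0185), which takes nothing from that array. A random slide block (adjusted p = 0.0364) and quantile normalization (adjusted p = 0.0354) gave a pass too. So did scaling by commonly detected probes (adjusted p = 0.0370) and a filter on all arrays (adjusted p = 0.0429). It did not pass under the remaining settings.

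The second Nfatc1 probe, designed on NM_198429, gave a different picture for Th17 cells. It read 3.67, 3.84 and 3.55 in Th1 cells, 3.14, 3.21 and 2.94 in Th17 cells, and 3.54, 3.24 and 2.98 in naive cells. The Th1 arrays lay above all others, the nearest naive array by a narrow margin, while the Th17 and naive arrays overlapped. The Th1 rise over naive cells was 0.43 ± 0.16 (limma adjusted p = 0.0451). That call was lost without any one of 7 arrays, all but naive replicate 1 and Th17 replicate 3. The rise was 0.42 within slide 1. Th17 against naive cells differed by -0.16, with a 95% interval of -0.52 to 0.21 (adjusted p = 0.428). Th17 fell by 0.59 ± 0.16 against Th1 (adjusted p = 0.0379), which was lost in 7 of the 9 fits that left out an array and within slide 2, at -0.52 (adjusted p = 0.134).

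The NM_016791 level minus the NM_198429 level on the same array was -0.50, -0.43 and -0.35 in Th1 cells, -0.59, -0.56 and 0.14 in Th17 cells and -1.33, -1.02 and -0.93 in naive cells. Scaling of the array cancels in such a difference, whose absolute value has no meaning between probes but whose change between groups does. The Th1 and Th17 arrays lay above all naive arrays, by 0.67 and 0.75 on average, with Th17 replicate 3 apart from the other Th17 arrays. An exact two-sided permutation test gave p = 0.1 for each, the smallest that 3 arrays against 3 allow (20 splits), or 0.129 after Benjamini-Hochberg adjustment over the 9 tests of such differences. Th17 and Th1 arrays overlapped, with a difference of 0.09 (exact p = 1, adjusted p = 1). These probe pairs were chosen after the values were seen.

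Nfatc2, known as the NFAT already present in resting T cells, was read by a bright and a very dim probe that did not behave alike. The NM_001136073 probe read 0.27, -0.02 and 0.04 in Th1 cells, 0.25, 0.27 and 0.50 in Th17 cells, and 0.25, 0.26 and -0.02 in naive cells. All 3 groups overlapped. No comparison passed, with differences of -0.07 (95% interval -0.36 to 0.23, limma adjusted p = 0.70) in Th1 against naive, 0.18 (-0.12 to 0.47, adjusted p = 0.28) in Th17 against naive and 0.24 (-0.06 to 0.54, adjusted p = 0.251) in Th17 against Th1 cells. The sign of the first of these depended on the scaling, at 0.08 when arrays were scaled to probes above background on all arrays.

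The NM_001037177 probe of Nfatc2 was well above background on 3 of 3 Th1, 3 of 3 Th17 and 1 of 3 naive arrays. Its processed signals on the linear scale were 31.9, 32.0 and 29.3 in Th1 cells, 28.5, 51.7 and 42.9 in Th17 cells and 16.9, 17.4 and 14.9 in naive cells. On the log2 scale these were -4.17, -4.22 and -4.55 in Th1 cells, -4.48, -3.28 and -3.32 in Th17 cells and -5.07, -4.81 and -5.21 in naive cells. Both groups lay above the naive arrays and overlapped each other. The Th17 rise over naive cells was 1.33 ± 0.31 (limma adjusted p = 0.00621), a call lost with either background correction, as given above, and with slide as a fixed block, at 1.36 (adjusted p = 0.132). Th1 against naive cells differed by 0.72 ± 0.31 (adjusted p = 0.0782), which passed without Th17 replicate 1 (adjusted p = 0.0052) and was 0.86 within slide 1, with its 1 Th1 array. With the local background subtracted it was -0.02. Th17 against Th1 cells differed by 0.61 (95% interval -0.09 to 1.32, adjusted p = 0.217), or by 1.01 (adjusted p = 0.009) without Th17 replicate 1.

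Nfatc3, another calcium-dependent NFAT found in T cells, was highest in Th1 cells on both of its probes, which are designed on the same transcript, NM_010901. Probe A_52_P333419 read -0.15, -0.05 and 0.04 in Th1 cells, -0.57, -0.37 and -0.52 in Th17 cells and -1.23, -0.99 and -1.43 in naive cells. The 3 groups were fully separate, with Th17 cells in the middle. It rose by 1.16 ± 0.13 in Th1 against naive cells (limma adjusted p = 0.000143, 1.06 within slide 1) and by 0.73 ± 0.13 in Th17 against naive cells (adjusted p = 0.00166). With slide as a fixed block the second rise was 0.60 and did not pass (adjusted p = 0.127). Th17 against Th1 differed by -0.43 (95% interval -0.73 to -0.14, adjusted p = 0.0557), -0.46 within slide 2. It passed without naive replicate 2 (adjusted p = 0.0416).

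Probe A_66_P117659 of Nfatc3 read 0.69, 0.47 and 0.27 in Th1 cells, -0.20, -0.21 and -0.51 in Th17 cells, and -0.33, 0.06 and -0.30 in naive cells. Th1 arrays lay above the rest, and here the Th17 and naive arrays overlapped. The Th1 rise over naive cells was 0.66 ± 0.16 (limma adjusted p = 0.00805) and 0.88 within slide 1. Th17 fell by 0.78 ± 0.16 against Th1 (adjusted p = 0.0129), in all 9 fits that left out an array, but did not pass within slide 2 (-0.57, adjusted p = 0.085). Th17 against naive cells differed by -0.12 (95% interval -0.48 to 0.25, adjusted p = 0.556). The probes of Nfatc3 thus gave the same Th1 direction but unlike values for Th17 against naive cells, as the probes of Nfatc1 did. Which stretch of the transcript each probe reads was not used here.

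Nfat5 had the largest Th1 difference of the 12 probes and separated all 3 groups. It read 0.94, 1.41 and 1.30 in Th1 cells, -0.20, -0.06 and -0.46 in Th17 cells and -0.69, -0.88 and -0.85 in naive cells. The lowest Th1 array was far above the highest Th17 array, and the Th17 arrays lay just above the naive ones. Nfat5 rose by 2.03 ± 0.15 in Th1 against naive cells (limma adjusted p = 1.83e-05, 1.75 within slide 1). It fell by 1.46 ± 0.15 in Th17 against Th1 cells (adjusted p = 0.000492), and by 1.49 within slide 2. The Th17 rise over naive cells, 0.57 ± 0.15 (adjusted p = 0.0135), passed in all 9 fits that left out an array, with adjusted p up to 0.0485, and did not pass with slide as a fixed block (0.26, adjusted p = 0.324).

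Of 8 genes listed as targets of Nfat5 in the osmotic response, 7 were measured, with 3 rising and 3 falling in Th1 against naive cells, 2 and 3 in Th17 against naive cells, and 2 and 1 in Th17 against Th1 cells. By gene, read by its brightest probe, 23.6% of all genes rose and 30.5% fell in the first comparison, 24.5% and 29.8% in the second, and 8.31% and 7.57% in the third. The list's medians were -0.40, -0.30 and 0.20, against -0.09, -0.09 and 0.01 over all genes. Akr1b3, the aldose reductase that makes the osmolyte sorbitol, averaged 5.79 ± 0.14 in Th1, 4.44 ± 0.02 in Th17 and 4.74 ± 0.08 in naive cells (SD, n = 3 each), a rise of 1.05 in Th1 over naive (limma adjusted p = 6.58e-05) and a fall of 1.35 in Th17 against Th1 (limma adjusted p = 7.95e-05). Slc5a3, the myo-inositol carrier, rose by 1.26 in Th1 and by 0.87 in Th17 over naive cells (limma adjusted p = 0.000596 and 0.00409), the second not with slide as a fixed block (0.25, adjusted p = 0.492). Slc38a2, an amino acid carrier, fell by 1.07 in Th1 against naive cells (limma adjusted p = 7.01e-05). S100a4, which binds calcium and is known from motile cells, rose by 6.11 in Th1 and 8.53 in Th17 over naive cells (limma adjusted p = 8.84e-06 and 1.63e-06). The list therefore held genes that moved with Nfat5 and genes that moved against it.

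**Figure D2:**
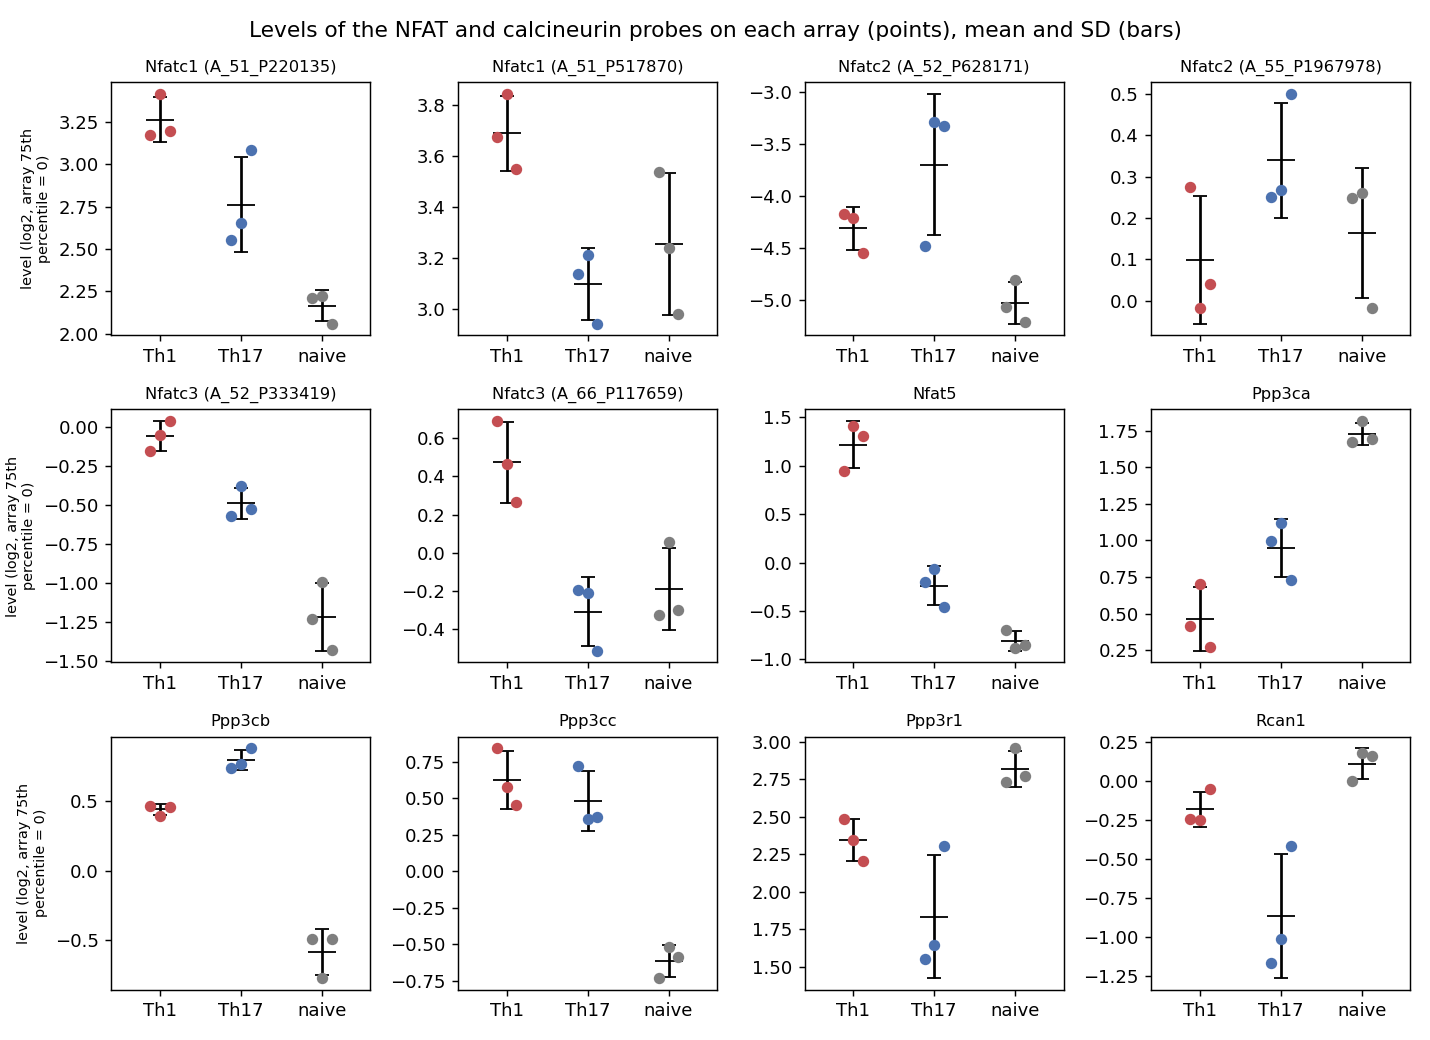
Levels of the 12 NFAT and calcineurin probes on each of the 9 arrays (points), in log2 units above or below the array's 75th percentile, with the mean and SD of each group (bars). Each panel has its own axis, which does not start at 0. Nfat5, both Nfatc3 probes and both Nfatc1 probes were highest in Th1 cells, and Ppp3ca, Ppp3r1 and Rcan1 were highest in naive cells.

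The 3 catalytic subunits of calcineurin did not move together. Ppp3ca, the alpha subunit, known for its abundance in brain, read 0.41, 0.70 and 0.27 in Th1 cells, 0.996, 1.12 and 0.73 in Th17 cells and 1.67, 1.82 and 1.69 in naive cells. All groups were separate, with naive cells highest. It fell by 1.26 ± 0.14 in Th1 against naive cells (limma adjusted p = 0.000165) and by 1.31 within slide 1. In Th17 against naive cells it fell by 0.78 ± 0.14 (adjusted p = 0.00209), with slide as a fixed block by 0.74 without passing (adjusted p = 0.0706). Th17 against Th1 differed by 0.49 (95% interval 0.16 to 0.82, adjusted p = 0.0548), 0.57 within slide 2, and passed without Th1 replicate 2 or without Th17 replicate 3, with adjusted p down to 0.0334.

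Ppp3cb, the beta catalytic subunit, whose loss in mice is known to impair T cells, had the opposite direction. Its levels were 0.47, 0.40 and 0.46 in Th1 cells, 0.74, 0.77 and 0.88 in Th17 cells and -0.49, -0.77 and -0.49 in naive cells. The replicates lay close together and the groups were separate, with Th17 cells highest. It rose by 1.03 ± 0.11 in Th1 over naive cells (limma adjusted p = 9.76e-05, 1.05 within slide 1) and by 1.39 ± 0.11 in Th17 over naive cells (limma adjusted p = 1.84e-05), and both passed with slide as a block. Th17 against Th1 differed by 0.36 (95% interval 0.11 to 0.60, adjusted p = 0.0567), 0.33 within slide 2, and passed without naive replicate 2 (adjusted p = 0.041) and when only probes above background on all arrays were kept (adjusted p = 0.0478).

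Ppp3cc, the gamma catalytic subunit, known for its abundance in testis, was also higher in both effector groups. It read 0.84, 0.58 and 0.45 in Th1 cells, 0.72, 0.36 and 0.37 in Th17 cells and -0.73, -0.52 and -0.59 in naive cells. Th1 and Th17 arrays overlapped, and all lay above the naive arrays. The rises over naive cells were 1.24 ± 0.15 in Th1 (limma adjusted p = 0.00019, 1.46 within slide 1) and 1.10 ± 0.15 in Th17 cells (limma adjusted p = 0.000345). Th17 against Th1 differed by -0.14, with a 95% interval of -0.47 to 0.19 (adjusted p = 0.552), and by 0.03 within slide 2.

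Set against each other on the same array, the catalytic subunits can be compared without any scaling between arrays. Ppp3cb minus Ppp3ca was 0.05, -0.30 and 0.19 in Th1 cells, -0.25, -0.35 and 0.15 in Th17 cells and -2.17, -2.59 and -2.18 in naive cells. Every Th1 and Th17 array lay above every naive array, by 2.29 and 2.16 on average, while Th17 and Th1 overlapped (difference -0.13, exact permutation p = 0.7, adjusted p = 0.787). Ppp3cc minus Ppp3ca was 0.43, -0.12 and 0.18 in Th1 cells, -0.27, -0.76 and -0.36 in Th17 cells and -2.41, -2.34 and -2.28 in naive cells. Here no groups overlapped, with shifts of 2.50 in Th1 and 1.88 in Th17 against naive cells and of -0.63 in Th17 against Th1 cells. For each of these differences without overlap the exact two-sided permutation test gave p = 0.1, the smallest the design allows, and 0.129 after adjustment over the 9 tests. These pairs too were chosen after the values were seen. Ppp3ca was lower, and Ppp3cb and Ppp3cc higher, on every Th1 and Th17 array than on any naive array. Separation of these pairs from naive cells follows from that and adds no support. Against their own spread, the SD of the Ppp3cb minus Ppp3ca difference was 0.25 in Th1, 0.27 in Th17 and 0.24 in naive cells.

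**Figure D3:**
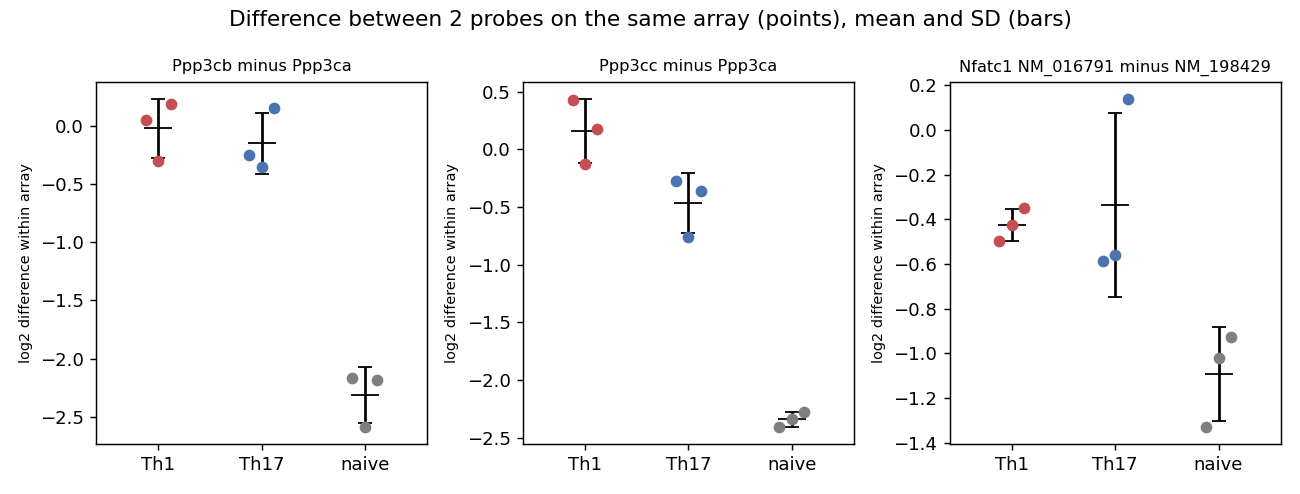
Difference in log2 level between 2 probes on the same array (points) with the mean and SD of each group (bars), for Ppp3cb minus Ppp3ca, Ppp3cc minus Ppp3ca and the 2 Nfatc1 probes. Only shifts between groups can be read, since each probe has its own response. In all 3 panels every naive array lay below every Th1 and Th17 array. The pairs were chosen after the values were seen.

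Ppp3r1, which encodes the regulatory subunit calcineurin B, read 2.49, 2.34 and 2.20 in Th1 cells, 1.55, 1.64 and 2.30 in Th17 cells and 2.73, 2.96 and 2.77 in naive cells. Naive arrays were the highest, and Th17 replicate 3, the array alone on its slide, lay among the Th1 arrays and away from the other Th17 arrays. Ppp3r1 fell by 0.99 ± 0.20 in Th17 against naive cells (limma adjusted p = 0.00297), and did so in all 9 fits that left out an array and with slide as a block. The fixed block takes nothing from Th17 replicate 3, so it is no check on that array. Th1 against naive cells differed by -0.48 ± 0.20 (adjusted p = 0.0692), -0.33 within slide 1. Th17 against Th1 differed by -0.51 ± 0.20 (adjusted p = 0.119), -0.67 within slide 2. Both passed when Th17 replicate 3 was left out, the first at an adjusted p of 0.008 and the second at -0.74 (adjusted p = 0.0082), and in no other fit that left out 1 array. The first also passed with the local background subtracted (adjusted p = 0.0431) and with only the 2 groups fitted (adjusted p = 0.0142). The second also passed with slide as a fixed block (adjusted p = 0.0205). Neither passed under the remaining settings.

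Rcan1, which encodes a feedback inhibitor that binds calcineurin, was lowest in Th17 cells. It read -0.24, -0.25 and -0.05 in Th1 cells, -1.17, -1.02 and -0.42 in Th17 cells and 0.00, 0.18 and 0.16 in naive cells. The groups were separate, Th17 replicate 3 again lying nearest the Th1 arrays. Rcan1 fell by 0.98 ± 0.19 in Th17 against naive cells (limma adjusted p = 0.00241), in all 9 fits that left out an array and with slide as a fixed block (-1.30). That block takes nothing from Th17 replicate 3, the Th17 array with the highest level, so it is no check on that array. The fall in Th17 against Th1, 0.69 ± 0.19 (adjusted p = 0.0402), was lost without any one array other than Th17 replicate 3, without which it was -0.91 (adjusted p = 0.0026), and was -0.94 within slide 2. Th1 against naive cells differed by -0.30 (95% interval -0.72 to 0.13, adjusted p = 0.215), -0.36 within slide 1, and passed only without Th17 replicate 3 (adjusted p = 0.0418).

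In the order of their levels, Nfat5 was the one probe of the 12 whose neighbours both passed the test, Th1 above Th17 and Th17 above naive. Nfatc1 (NM_016791), Nfatc3 (A_52_P333419) and Ppp3cc also ran Th1, Th17, naive, but their Th1 and Th17 levels did not differ past the threshold. For Nfatc1 (NM_198429) and Nfatc3 (A_66_P117659) the order was Th1, naive, Th17, with no call between naive and Th17. Ppp3cb ran Th17, Th1, naive with a call only between Th1 and naive, and Ppp3ca ran naive, Th17, Th1 with a call only between naive and Th17. Rcan1 ran naive, Th1, Th17 with a call between Th1 and Th17, and Ppp3r1 ran the same way with no call between neighbours. For both Nfatc2 probes Th17 came first, with no call between neighbours.

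The direction of a difference near 0 depends on the scaling. The median probe shifted by -0.09 in Th1 against naive cells as reported and by 0.05 when arrays were scaled to probes above background on all arrays. Relative to that median, a value that is the same under both by construction, the members stood at 2.12 for Nfat5, 1.34 for Ppp3cc, 1.25 for Nfatc3 (A_52_P333419), 1.20 for Nfatc1 (NM_016791), 1.12 for Ppp3cb, -1.17 for Ppp3ca and -0.38 for Ppp3r1. Nfatc2 (NM_001136073) stood at 0.03 on that scale.

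Genes whose pattern over the 9 arrays was most like a member's were looked for among 13080 other genes with a symbol, by the root mean square difference between levels centred on each gene's mean, for the 4 members whose group means span over 1 log2 unit by their brightest probe. For Nfat5 the closest were Arhgap5 (0.141), Abhd4 (0.175) and Nemp2 (0.179). For Ppp3ca they were Stk26 (0.134), Spryd7 (0.136) and 2810408A11Rik (0.139). Ppp3cb was matched most closely of the 4, by Tnfrsf13b (0.0738), Ints9 (0.0827) and Yif1b (0.0924). For Ppp3cc the closest gene was Itpr1 (0.0965), a calcium release channel of the endoplasmic reticulum, before Myl12b (0.109) and Mrpl33 (0.111). These are ranks among many genes on 9 arrays that share their groups and slides.

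Other genes of the pathway were read from 9 lists, by the brightest probe of each gene. Every count in these lists is to be read beside the shares over all genes, 23.6% rising and 30.5% falling in Th1 against naive cells, 24.5% and 29.8% in Th17 against naive cells, and 8.31% and 7.57% in Th17 against Th1 cells, and every median beside -0.09, -0.09 and 0.01. Upstream, store-operated calcium entry had 8 of 10 genes measured, of which 1 rose and 3 fell in Th1 against naive cells, 2 and 3 in Th17 against naive cells, and 0 and 2 in Th17 against Th1 cells (medians -0.16, -0.31 and -0.15). Stim1, the calcium sensor of the endoplasmic reticulum, fell by 0.61 in Th1 and by 1.11 in Th17 against naive cells (limma adjusted p = 0.00477 and 0.000193). Saraf, which switches store-operated entry off, fell by 0.91 and 1.20 (limma adjusted p = 7.41e-05 and 1.56e-05). Both genes, one for entry and one against it, fell together. Of the 2 genes that fell in Th17 against Th1 cells, Stim1 and Stim2, neither passed within slide 2.

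Calcium release and clearance had 9 of 9 genes measured, with 4 rising and 3 falling in Th1 against naive cells, 5 and 3 in Th17 against naive cells, and 0 and 3 in Th17 against Th1 cells (medians 0.51, 0.95 and -0.16). The release channels were divided. Itpr1 rose by 1.26 in Th1 over naive cells and Itpr2 rose by 1.30, whereas Itpr3 fell by 1.09 (limma adjusted p = 8.29e-05, 2.3e-05 and 5.12e-05). In Th17 against naive cells Itpr2 rose by 0.95 and Itpr3 fell by 1.49 (limma adjusted p = 0.000113 and 8.96e-06). Itpr1 averaged 2.15 in Th1, 1.99 in Th17 and 0.89 in naive cells. Atp2b1, a pump that moves calcium out of the cell, rose by 1.13 in both groups over naive cells (limma adjusted p = 1.43e-05 and 1.35e-05). Of the calmodulin genes, whose protein passes the calcium signal to calcineurin, Calm3 rose by 0.64 in Th1 and 0.68 in Th17 over naive cells (limma adjusted p = 0.0023 and 0.00162), and Calm2 fell by 0.60 in Th17 against naive cells (limma adjusted p = 0.0121, not with slide as a fixed block).

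Of 9 other calcineurin genes and inhibitors, 6 were measured, with 2 rising and 1 falling in Th1 against naive cells, 2 and 0 in Th17 against naive cells, and 0 and 1 in Th17 against Th1 cells (medians 0.20, 0.03 and 0.07). Cabin1, a calcineurin-binding repressor, rose by 0.99 in Th1 over naive cells (limma adjusted p = 0.000941), and by 0.80 within slide 1. It rose by 0.84 in Th17 over naive cells (limma adjusted p = 0.00216), though not with slide as a fixed block (0.63, adjusted p = 0.128). Rcan3, a relative of Rcan1, rose by 0.70 in Th17 over naive cells (limma adjusted p = 0.0114), where Rcan1 fell, a call that was also lost with that block (0.37, adjusted p = 0.468).

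Of 14 kinases known to act on NFAT, most of which put phosphate groups back, 14 were measured. In Th1 against naive cells 2 rose and 8 fell, where more genes fell than rose over all genes too, and in Th17 against naive cells 1 rose and 9 fell, with medians of -0.36 and -0.45. Mapk14, the stress kinase p38 alpha, fell by 1.76 in Th1 and by 1.04 in Th17 against naive cells (limma adjusted p = 4.05e-05 and 0.000652). Csnk1e, a casein kinase, fell by 1.15, and Pim1, known to raise Nfatc1 activity, fell by 0.76 in Th1 against naive cells (limma adjusted p = 0.000151 and 0.000631). In Th17 cells both also averaged below naive cells, Csnk1e at 0.29 against 0.96 and Pim1 at 4.75 against 5.49. Dyrk1a and Dyrk2, which prime NFAT for other kinases, fell by 1.08 and 1.07 in Th17 against naive cells (limma adjusted p = 0.000429 and 0.000382), but did not pass with slide as a fixed block (adjusted p = 0.0836 and 0.0742). The kinases that rose in Th1 cells were Lrrk2 and Gsk3b, and Lrrk2 was the one that rose in Th17 cells. Gsk3b, which keeps NFAT out of the nucleus, rose by 0.78 ± 0.17 in Th1 over naive cells (limma adjusted p = 0.00441) and was named here after its values were seen. Lrrk2, known from mouse macrophages to hold NFAT back, was well above background on all Th1 and Th17 arrays and on no naive array. It was at least 25.5-fold higher in Th1 and at least 19.5-fold higher in Th17 than in naive cells (limma adjusted p = 8.57e-07 and 1.36e-06). In Th17 against Th1 cells 2 kinases rose and 3 fell (median -0.13), and none of the called ones named by rule, Mapk14, Gsk3b, Dyrk2 and Csnk1e, passed within slide 2.

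Other NFAT genes and modulators, a list that takes in nuclear transport, had 7 of 9 genes measured, with 0 rising and 4 falling in Th1 and again 0 and 4 in Th17 against naive cells, and 1 rising and 1 falling in Th17 against Th1 cells (medians -0.33, -0.41 and -0.22). Xpo1, the exportin that carries NFAT out of the nucleus, fell by 0.94 in Th1 and by 1.44 in Th17 against naive cells (limma adjusted p = 0.000948 and 9.19e-05). Nfatc2ip, a protein that binds Nfatc2, fell by 0.67 and 1.20 (limma adjusted p = 0.0016 and 6.62e-05). The factors that bind DNA beside NFAT had 13 of 14 genes measured and went both ways, with 4 rising and 4 falling in Th1, 3 and 5 in Th17 against naive cells, and 1 and 3 in Th17 against Th1 cells (medians -0.26, -0.33 and -0.16). Foxp3, the factor that defines regulatory T cells and binds DNA with NFAT, rose by 3.97 in Th1 and 3.17 in Th17 over naive cells (limma adjusted p = 2.52e-06 and 8.12e-06). Maf rose by 4.82 in Th1 and 5.79 in Th17 over naive cells (limma adjusted p = 7.14e-06 and 2.76e-06). The AP-1 member Fosl1 fell by 2.05 in Th1 and by 1.87 in Th17 against naive cells (limma adjusted p = 1.96e-05 and 3e-05). Fos fell by 2.36 in Th17 against naive cells (limma adjusted p = 0.00038), and averaged 1.33 in Th1, 0.35 in Th17 and 2.71 in naive cells. Jun, another AP-1 member, rose by 1.47 in Th17 over Th1 cells (limma adjusted p = 0.00148).

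Genes known to be switched on by NFAT were the list with the largest medians of the 9 against naive cells. Of 25 listed, 24 were measured, with 20 rising and 0 falling in Th1, and 16 rising and 4 falling in Th17 against naive cells, and with 4 rising and 9 falling in Th17 against Th1 cells. The medians were 3.60, 1.08 and -0.32. The list includes Ifng, whose protein defined the Th1 sort and which rose by 7.71 over naive cells in Th1 cells (limma adjusted p = 1.76e-07), so that gene is not a finding. The inhibitory receptors Ctla4 and Pdcd1 rose by 7.43 and 4.31 in Th1 and by 6.79 and 4.05 in Th17 over naive cells (limma adjusted p = 2.07e-06, 2.24e-06, 3.26e-06 and 3.1e-06). Csf2, the cytokine GM-CSF, rose by 6.41 in Th17 over naive cells (limma adjusted p = 1.32e-05), and averaged 3.50 in Th1, 4.55 in Th17 and -1.87 in naive cells. Against Th1 cells, Th17 cells were set apart by the chemokine Ccl4, which fell by 5.21, by Lag3, which fell by 2.52, and by Fasl, which fell by 1.40 (limma adjusted p = 6.67e-05, 0.000107 and 0.000594).

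**Figure D4:**
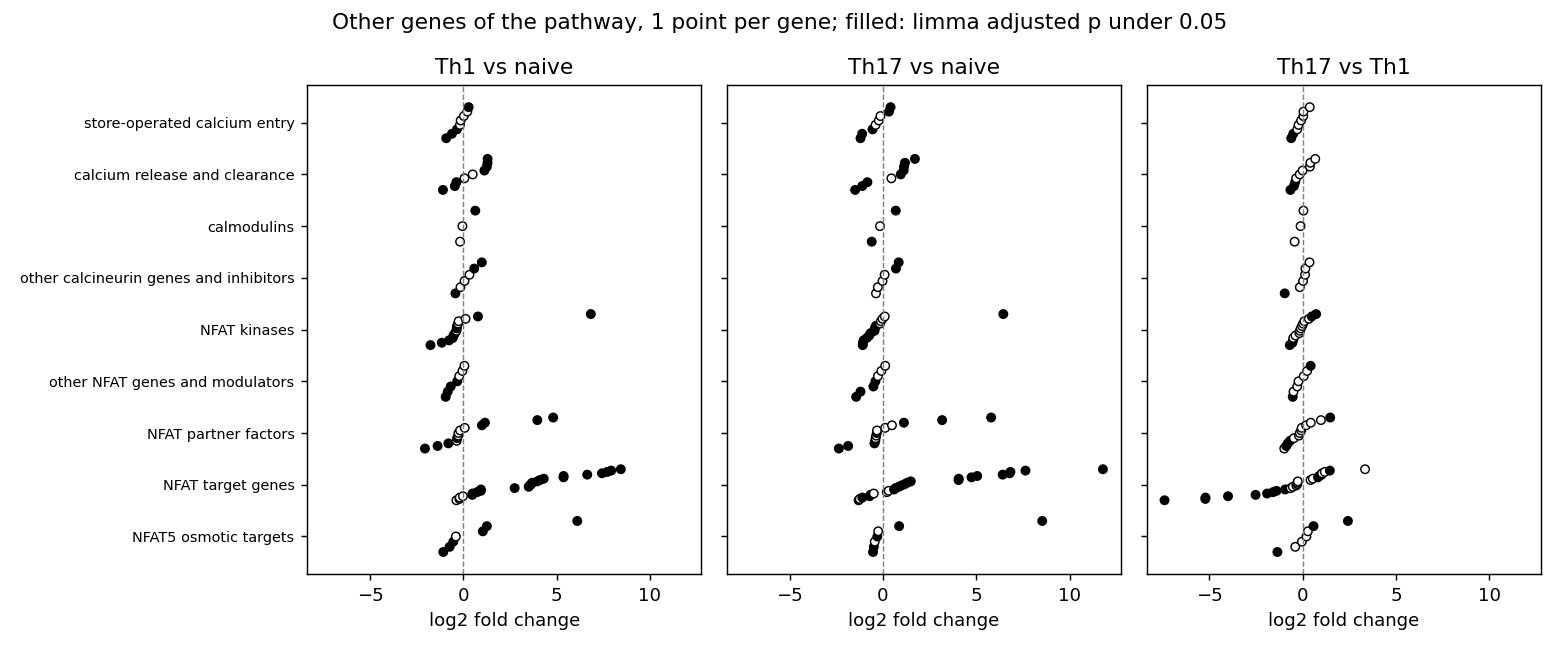
Log2 fold changes of the other genes of the pathway, 1 point per gene by its brightest probe, in 9 lists and the same 3 comparisons, with the first group of each pair on top of the ratio. Filled points passed the test (limma adjusted p under 0.05). The NFAT target genes had the largest medians of the 9 lists against naive cells. S100a4 of the Nfat5 osmotic targets reached 8.53 in Th17 against naive cells. The Lrrk2 points of the kinase list rest on naive signals below background.

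Markers of other cells moved between the groups as well. Markers of a list were summed on the linear scale relative to the 75th percentile of each array. The 6 myeloid markers ranged from 25.8 to 31.8 in Th1, 20.1 to 30.8 in Th17 and 17.0 to 17.2 in naive cells. Fcgr3 was above background on no array. On all arrays of a group, 3 of the 6 were above background in Th1, 4 in Th17 and 4 in naive cells. Itgam, the brightest, had log2 levels of 4.55 to 4.82 in Th1, 4.09 to 4.79 in Th17 and 3.63 to 3.69 in naive cells. Csf1r went the other way, at 1.18 to 1.74, 1.27 to 1.45 and 2.08 to 2.20. The dimmer Cd14 was highest in Th17 cells, at -0.30, -1.14 and -1.71, against -3.06 or lower on every Th1 and naive array. Lyz2 was above background only in Th17 cells, at -3.30, -5.27 and -4.78. Adgre1 lay at -4.27 or lower on every array. The 4 erythroid markers on the array ranged from 0.05 to 1.37 in Th1, 0.96 to 3.01 in Th17 and 0.06 to 0.12 in naive cells. The 4 NK cell markers ranged from 0.24 to 0.52 in Th1, 0.08 to 0.10 in Th17 and 0.64 to 0.97 in naive cells, with Ncr1 and Klrb1c above background on none. Eomes, which made up most of that sum in Th1 and naive cells, fell by 5.70 in Th17 against naive cells (limma adjusted p = 0.000135). Its Th17 arrays read -7.70, -5.92 and -4.90, not all above background, so the size of that fall is uncertain. Klrk1 of the same list was above background on all Th17 and no naive arrays. It was at least 1.88-fold higher in Th17 than in naive cells (limma adjusted p = 3.8e-05). The 2 CD8 T cell markers ranged from 0.06 to 0.07 in Th1, 0.05 to 0.08 in Th17 and 0.57 to 0.68 in naive cells, with Cd8a above background on none, and Cd8b1 fell by 3.31 in Th1 and fell by 3.41 in Th17 against naive cells (limma adjusted p = 1.66e-06 and 1.59e-06). The gamma-delta T cell marker Sox13, the 1 of 3 on the array, fell by 0.58 in Th1 and fell by 0.53 in Th17 against naive cells (limma adjusted p = 0.00647 and 0.00942). The 5 dendritic cell markers ranged from 177 to 201 in Th1, 180 to 215 in Th17 and 161 to 169 in naive cells. Nearly all of that sum was the Siglech probe, at log2 levels of 7.33 to 7.75, while the others lay at -2.85 or lower. Clec9a and Flt3 were above background on none, and Xcr1 was at least 2.54-fold higher in Th1 than in naive cells (limma adjusted p = 0.000227). The 8 CD4 T cell markers ranged from 390 to 510 in Th1, 489 to 533 in Th17 and 314 to 362 in naive cells. Their part in the differences of the NFAT and calcineurin genes was not tested.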

How the data were processed

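RNA of 3 Th1, 3 Th17 and 3 naive samples (0.5 µg each, Cy3) was read on Agilent mouse arrays with 1 colour (design 026655), built on genome mm9 per the file headers. The deposited array files hold each spot's processed intensity on a linear scale, background-subtracted by Agilent Feature Extraction (10.7.3.1 per the file headers, 10.5 per the submitters' processing notes), with no normalization between arrays. The authors' deposited value table holds log2 values. On 39429 matched probes its differences between arrays correlate with those of the log2 intensities above 0.999, so its scale is log2 and its direction is that of the intensities, while the baseline subtracted from each probe is not stated. The medians of its columns lay between -0.10 and 0.28.

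Control and outlier spots were left out (1377 of 44397 spots on an array were controls), the log2 value of each array's 75th percentile was subtracted from its log2 intensities, and a probe was kept if 3 or more of the 9 arrays showed it well above background. Of 39429 probes, 27234 were named through RefSeq accessions and 12195 were not. The 3 groups were fitted together, per probe, with limma 3.58.1 in R 4.3.3 (tables read through data.table, release 1.17.8) without covariates. A probe passed at a two-sided Benjamini-Hochberg adjusted p under 0.05 over 23216 probes. SE and 95% intervals come from that fit, and the script was tested on simulated data. The brightest probe stood for a gene in lists. A gene above background on no array of a group is given a lower bound against the lowest signal above background. The number of arrays limits the precision. Named were all members, up to 4 genes per list and comparison by smallest adjusted p, and the 3 genes most like a member. The members and lists were chosen with earlier results of these data known, and members, lists and named genes give no independent support. Alternatives changed the background correction, scaling, normalization, filter, unit, samples in the fit, slide and replicate blocks, and replicates. Subtraction of the local background (floor 1, plus 50) and normexp on 8 arrays (also plus 50) were added after seeing the data.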

Additional observations from a re-analysis of the deposited data

How the results depend on the processing

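Of the calls on members, those of Nfat5, Ppp3ca, Ppp3cb, Ppp3cc, Nfatc1 (NM_016791) and both Nfatc3 probes in Th1 against naive cells, of Ppp3cb, Ppp3cc, Ppp3r1 and Rcan1 in Th17 against naive cells and of Nfat5 in Th17 against Th1 cells passed under every alternative run. With slide as a fixed block 4 of 12 member probes and 6400 of all probes passed in Th17 against naive cells, against 9 and 12641 as reported. In Th17 against Th1 cells, where 4 member probes and 3710 of all probes passed as reported, 2 and 1914 passed with normexp on 8 arrays, 2 member probes with no filter on dim probes, 8 of 11 with a filter on all arrays, 6 with quantile normalization, with arrays scaled to probes that all of them detect or with slide as a random block, and 2 and 1750 within slide 2. Within slide 1, 8035 probes passed in Th1 against naive cells, against 12586. When 1 array was left out, 2357 to 3406 probes and 2 to 6 member probes passed in Th17 against Th1 cells, 7 to 10 member probes in Th1 against naive and 9 in Th17 against naive cells. Among probes that passed, the share higher in Th1 than in naive cells was 43.4% as reported and 55.2% when arrays were scaled to probes that all of them detect, and the share higher in Th17 than in Th1 cells was 52.7% and 42.0%.

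Directions turned for differences that had not passed, save 1. Nfatc2 (NM_001037177) in Th1 against naive cells was -0.018 with the local background subtracted and -0.028 with normexp on 8 arrays. Nfatc2 (NM_001136073) in the same comparison was 0.024 with normexp on 8 arrays, 0.083 with that scaling, 0.0022 with slide as a random block, and 0.11 with slide as a fixed block and within slide 1. Nfatc3 (A_66_P117659) in Th17 against naive cells was 0.31 with slide as a fixed block and 0.0059 without naive replicate 2. Ppp3cc in Th17 against Th1 cells was 0.025 with slide as a fixed block and within slide 2, and the difference between the Nfatc1 probes was -0.15 without Th17 replicate 3 and up to 0.21 without another array. Fkbp1a in Th1 against naive cells, which had passed at -0.42, was 0.041 with quantile normalization. The cause was not tested.

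The replicate numbers were not counted as pairing the samples, since the residuals of same-numbered arrays of different groups correlated over 0.1 in 3 of 9 pairs and not in all. All 9 correlations were above 0, at 0.0027 to 0.17, against -0.19 to 0.063 for 18 other pairs, so a shared batch behind the numbers was not settled. With replicate number as a block 12517, 12648 and 3758 probes and 8, 9 and 5 member probes passed, the added one being Ppp3ca in Th17 against Th1 cells (adjusted p = 0.0266). The planned normexp fit on 9 arrays is left out because it could not be fitted on Th1 replicate 2. The deposited value table gave 8, 9 and 4 member calls, as reported. Signal over background limits the NM_001037177 probe of Nfatc2 most of the 12.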
